A study of Mus musculus with 20 samples.

Results

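The genes described here are 38 genes of the cell cycle, read from the 21315 genes measured in microglia of mouse models of amyloid disease. They were taken by gene symbol in 2 lists that were kept apart throughout, 25 genes of the G2 and M phases (called mitosis genes below) and 13 genes of the S phase. Every member was found in all 20 libraries.

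A dividing cell first copies its DNA in S phase and then separates the copies in mitosis. Genes of both steps are switched on one after the other: E2F factors turn on the DNA copying genes, and the MuvB complex with B-MYB and FOXM1 turns on the mitosis genes later in the cycle. Microglia, the resident macrophages of the brain, divide slowly in the healthy adult, and they are known to gather and divide around amyloid plaques.

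Bulk RNA sequencing was done on 20 libraries of brain microglia from C57BL/6 mice of 9 months, sorted by flow cytometry as cells with intermediate CD45 and with CD11b. In 6 libraries the cells were also chosen for C3aR, the receptor of the complement fragment C3a, through a Td-tomato reporter in a floxed C3ar1 line, and these were 3 C3aR-positive WT and 3 C3aR-positive APP-KI libraries from littermates that all carried the reporter. The other 14 libraries were not selected on C3aR. They came from littermates of a separate cross, with 5 libraries of APP-KI; C3aR-KO mice and 3 each of WT, APP-KI and C3aR-KO. APP-KI mice carry the APP NL-G-F knockin, which sits in the mouse's own App gene and leads to amyloid plaques. Both sexes were used in the study, and the sex of single libraries is not given in the sources used here. C3aR-KO mice lack C3ar1 in all cells from birth, so that loss of the receptor was not limited to microglia. Nothing in the labels says beyond the replicate number that libraries came from separate animals, and p-values measure the spread between these libraries. In bulk RNA, more cells with an active gene and more RNA of that gene per cell cannot be told apart.

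Levels are given as scaled values, which are proportional to the reads of a gene divided by the upper quartile of the gene counts of its library. They are not divided by gene length. Recovered reads came to between 13939559 and 30388941 in the C3aR-positive libraries and between 42239056 and 76608464 in the others. C3ar1 itself stood at 37.5 to 81.0 in the C3aR-positive WT libraries, at 275 to 339 in WT and at 39.8 to 67.9 in C3aR-KO, so that the libraries labelled C3aR-positive WT held less C3ar1 RNA than the WT libraries that were not selected and overlapped with the knockout. The C3aR-positive APP-KI libraries held 200.4 to 382. The 5 microglial markers read here (Tmem119, P2ry12, Cx3cr1, Sall1 and Csf1r) were present in all 20 libraries, with summed scaled values of 5991 to 22302.

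Of the 14 libraries not selected on C3aR, 4 had reads on only 12386 to 13249 genes, against 15547 to 17445 in 9 others and 21210 in APP-KI 5. These 4 were APP-KI 4, C3aR-KO 1, C3aR-KO 2 and APP-KI; C3aR-KO 1. Their totals were 42239056 to 69483570 reads, against 44418969 to 76608464 in the 10 other libraries not selected on C3aR. APP-KI; C3aR-KO 1 had the lowest total of the 14. Cell cycle genes dropped out of the 4 libraries with few genes. Together the 4 libraries had 23 mitosis values and 6 S-phase values at 0 reads, and the other 16 libraries had 1 and 0. Each of the 4 missed 7 or 8 of the 38 genes, and not the same genes each time: Ccnb1 (cyclin B1) was at 0 in all 4, Rrm2 in 3 and Cdk1 in none. A count of 0 allows up to 3 reads, which is a scaled value of 0.0441 to 0.0677 in these libraries, and this limit covers counting error only. In the same libraries other members stood far above the rest of their group, such as Bub1, a checkpoint kinase, at 10.6 in APP-KI 4 against 3.26 and 2.05 in APP-KI 5 and 6. All 4 belong to the library series that also holds WT 4, APP-KI 5 and APP-KI; C3aR-KO 2, as read from the library numbers. Results that rest on these libraries are given with and without them.

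**Figure D1:**
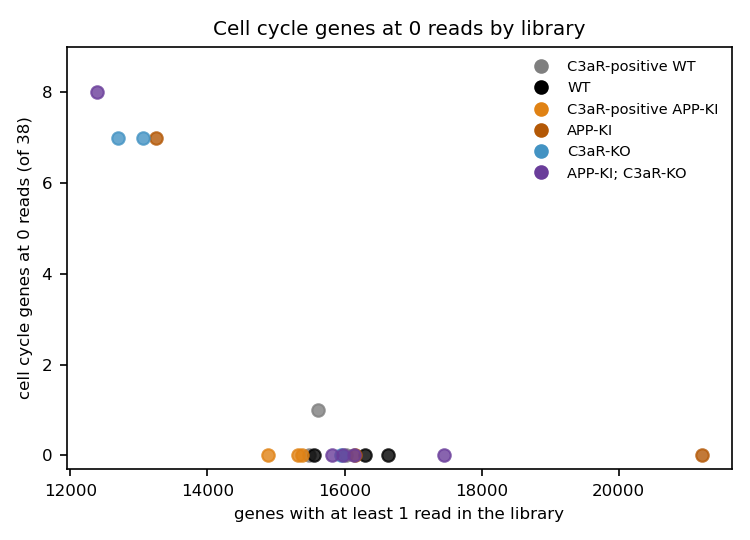
Number of the 38 cell cycle genes at 0 recovered reads in each library (vertical axis), against the number of genes with reads in that library (horizontal axis), with 1 point per library coloured by group. The 4 libraries with 12386 to 13249 genes lie far above the other 16, in which a single value was at 0.

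Promoters of members that the results below turn on are shown, so that the short words counted after them can be seen in place. Each is the 120 bases before the RefSeq gene start (GRCm38.p6), 5′ to 3′ on the strand of the gene, and capitals mark the word TTTGAA, the box CCAAT, and the longer words TTTCCCGC and TTTGGCGC, or the reverse complement of any of them. Cdk1, Top2a, Mki67 and Ccnb2 are mitosis genes and Mcm5, Mcm6, Pcna and Tyms S-phase genes.
Cdk1 promoter, chr10:69352913-69353032, minus strand: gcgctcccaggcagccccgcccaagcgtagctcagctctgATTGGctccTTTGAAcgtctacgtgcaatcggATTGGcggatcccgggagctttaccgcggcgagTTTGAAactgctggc
Top2a promoter, chr11:99024190-99024309, minus strand: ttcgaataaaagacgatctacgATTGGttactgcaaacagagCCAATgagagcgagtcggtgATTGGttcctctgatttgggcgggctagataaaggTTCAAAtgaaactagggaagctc
Mki67 promoter, chr7:135716380-135716499, minus strand: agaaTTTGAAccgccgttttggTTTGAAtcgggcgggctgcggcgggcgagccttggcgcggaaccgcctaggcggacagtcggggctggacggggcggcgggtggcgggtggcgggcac
Ccnb2 promoter, chr9:70421555-70421674, minus strand: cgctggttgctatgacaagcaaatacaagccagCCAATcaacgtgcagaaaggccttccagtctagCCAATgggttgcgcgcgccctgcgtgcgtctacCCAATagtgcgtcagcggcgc
Mcm5 promoter, chr8:75109389-75109508, plus strand: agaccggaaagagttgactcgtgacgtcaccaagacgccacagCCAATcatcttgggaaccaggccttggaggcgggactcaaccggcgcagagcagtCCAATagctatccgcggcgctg
Mcm6 promoter, chr1:128359706-128359825, minus strand: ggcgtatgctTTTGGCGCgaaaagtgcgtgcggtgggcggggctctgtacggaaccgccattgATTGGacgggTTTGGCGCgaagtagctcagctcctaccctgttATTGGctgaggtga
Pcna promoter, chr2:132253181-132253300, minus strand: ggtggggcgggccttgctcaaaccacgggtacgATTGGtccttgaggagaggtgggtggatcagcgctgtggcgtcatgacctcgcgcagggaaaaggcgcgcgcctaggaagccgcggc
Tyms promoter, chr5:30073626-30073745, minus strand: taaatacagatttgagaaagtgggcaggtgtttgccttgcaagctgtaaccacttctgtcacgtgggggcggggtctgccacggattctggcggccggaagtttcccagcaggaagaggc

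TTTGAA is the core of the cell cycle homology region, known as the site that MuvB reads in mitosis promoters, CCAAT is the NF-Y box, and TTTCCCGC and TTTGGCGC are forms of the E2F site. In the wider RefSeq window, from 250 bases before to 50 after the start, 20 of the 25 mitosis genes and 12 of the 13 S-phase genes had an entry. TTTGAA (on the other strand TTCAAA) was in 15 of 20 mitosis promoters and in 1 of 12 S-phase promoters, against 20.2% of the 27025 genes with an entry. CCAAT (on the other strand ATTGG) was in 18 of 20 and 9 of 12, against 41.1% of genes. The E2F words were rarer: TTTCCCGC or GCGGGAAA was in 1 of 20 mitosis and 2 of 12 S-phase promoters (1.24% of genes), and TTTGGCGC or GCGCCAAA in 0 of 20 and 3 of 12 (0.585% of genes). Both strands were read, and each word was counted on its own even where its end letters overlap with another word. The Mcm6 promoter above holds TTTGGCGC at 2 places, whereas the printed stretch of the Tyms promoter holds none of the 4 words. These are matches of letters, and no binding was measured here.

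Per kilobase of exon (GENCODE M21), the S-phase genes were the more abundant RNAs in WT microglia. Their mean scaled value per kilobase in WT ran from 1.096 for Rrm2 to 26.5 for Mcm3, with a median of 4.87, and that of the mitosis genes from 0.232 for Ccnb1 to 7.49 for Mki67, with a median of 1.15. Mcm3, a subunit of the helicase that opens DNA at origins, was first among the 38, followed by Pcna, the sliding clamp of DNA polymerase, at 11.0 and Mcm4 at 8.10. Mki67, which codes for the Ki-67 protein that coats mitotic chromosomes, ranged from 2.68 to 13.5 per kilobase in the 3 WT libraries, so that its rank among these neighbours was not fixed beyond that spread. Cdk1 (chr10:69335146-69352938, minus strand, GRCm38), the kinase that starts mitosis, stood at 1.098 per kilobase.

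The 3 WT libraries were not alike in mitosis genes. WT 6 was the highest and WT 4 the lowest of the 3 in all 25 mitosis members, whereas over all 12009 genes that averaged 1 or more in scaled value WT 6 was highest in 25.1% and WT 4 lowest in 39.5%. Mki67 stood at 26.99, 63.3 and 136 in WT 4, 5 and 6, and Top2a, the topoisomerase that untangles sister chromatids, at 11.3, 27.2 and 46.3. S-phase members kept closer: WT 6 was highest in 7 and WT 4 lowest in 8 of 13, and Mcm3 stood at 102, 101 and 94.8. The summed scaled value of 7 genes of neutrophils and their precursors (S100a8, S100a9, Ngp, Camp, Mpo, Elane and Ltf) moved with part of this, at 116, 45.0 and 940 in WT 4, 5 and 6, and its part in the mitosis values was not tested. WT 4 belongs to another library series than WT 5 and 6.

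**Figure D2:**
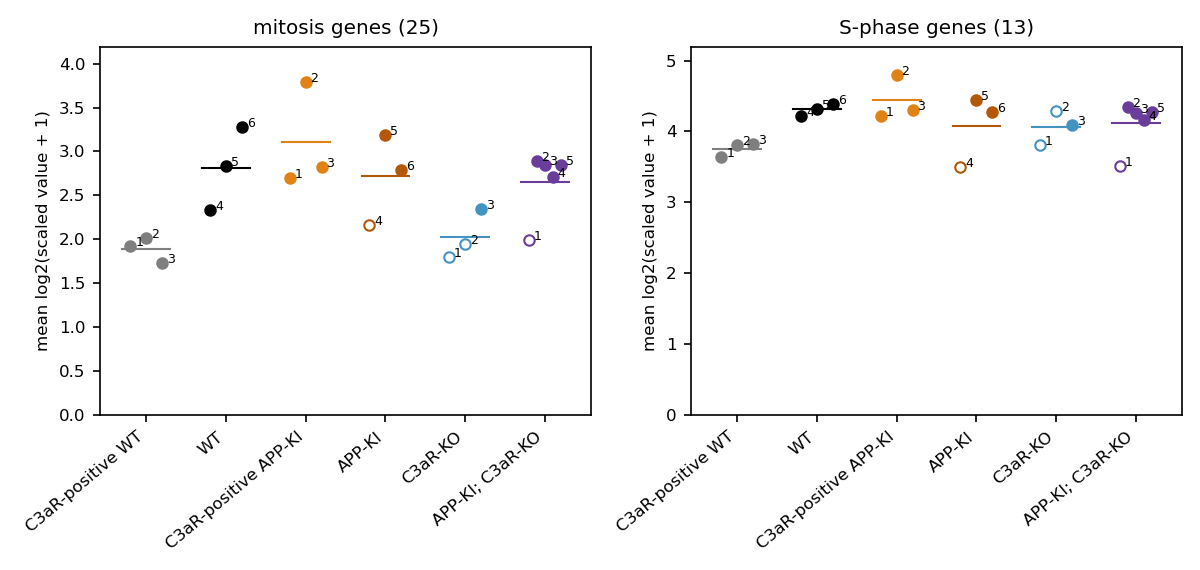
Mean of log2(scaled value + 1) over the 25 mitosis genes and over the 13 S-phase genes (vertical axes, starting at 0) in each of the 20 libraries by group, with open symbols for the 4 libraries with reads on few genes a line at each group mean and the replicate number beside each point. The mitosis mean ran from 1.72 to 3.79 and the S-phase mean from 3.50 to 4.79, the top of both being C3aR-positive APP-KI 2.

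In C3aR-positive microglia, the amyloid genotype went with higher mitosis genes. Of the 37 members that passed the filter on low values, 12 were called higher in C3aR-positive APP-KI than in C3aR-positive WT and 0 lower (limma, adjusted p under 0.05 over 12307 genes). Over all genes 13% were called higher and 9.72% lower. Before adjustment, 18 members were higher and 1 lower at a p under 0.05, against 2201 and 2427 of all 12307 genes. By edgeR and DESeq2, 0 members were called lower. The 12 were 8 of 24 mitosis genes and 4 of 13 S-phase genes. All 24 mitosis genes tested had a log2 fold change above 0 (median 1.22), as had 11 of 13 S-phase genes (median 0.32), where the median over all genes tested was −0.17. The groups did not overlap, with APP-KI higher, in 17 mitosis and 6 S-phase genes, where 17.8% of all genes tested were of that kind. Ccnb1 was the member that did not pass, at 0.513, 0 and 0.177 in the C3aR-positive WT libraries and 0.567, 2.72 and 0.0784 in the C3aR-positive APP-KI libraries, and its groups overlapped.

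Cdk1 had the largest log2 fold change of the members tested. It stood at 0.833, 1.17 and 1.03 in C3aR-positive WT and at 7.73, 12.6 and 11.3 in C3aR-positive APP-KI, a log2 fold change of 2.50 ± 0.42 (SE, n = 3 and 3, limma adjusted p = 0.0027). Each APP-KI library was above each WT library, and edgeR on the recovered reads, where low genes are shrunk less than by the pseudocount of 1, gave 3.49 (adjusted p = 0.0026). Of the cyclins among the members tested, Ccnb2 and Ccna2 rose. Ccnb2 (cyclin B2) stood at 0.801, 0.0974 and 0.7098 against 3.76, 7.87 and 4.31, with a log2 fold change of 2.02 ± 0.50 (limma adjusted p = 0.018). Ccna2 (cyclin A2), which acts from S phase into mitosis, stood at 3.21, 3.26 and 2.59 against 8.25, 11.9 and 8.78, with 1.39 ± 0.38 (limma adjusted p = 0.027). For both cyclins each APP-KI library was above each WT library.

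The other 5 mitosis genes that rose were Mki67, Top2a, Cenpe, Nusap1 and Birc5. Mki67 stood at 41.2, 38.8 and 25.9 in C3aR-positive WT and 60.6, 109 and 62.7 in C3aR-positive APP-KI (1.08 ± 0.26, limma adjusted p = 0.015). Top2a stood at 13.4, 16.3 and 12.5 against 29.7, 40.6 and 31.2 (1.20 ± 0.23, limma adjusted p = 0.0059), and here the WT libraries lay within a narrow range. Cenpe, the kinetochore motor that carries chromosomes to the spindle middle, stood at 4.97, 6.13 and 5.61 against 15.9, 29.5 and 17.6 (1.70 ± 0.34, limma adjusted p = 0.0066). Nusap1, a protein that binds spindle microtubules, stood at 1.73, 1.02 and 2.34 against 4.38, 10.2 and 7.68 (1.61 ± 0.47, limma adjusted p = 0.035). Birc5 (survivin), part of the Aurora B complex that checks kinetochore attachment, stood at 0.1603, 0.876 and 0.355 against 2.58, 7.39 and 2.74 (1.75 ± 0.54, limma adjusted p = 0.045), and its C3aR-positive APP-KI 2 value was far above its 2 neighbours.

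The other 16 mitosis genes tested did not pass the test. Their log2 fold changes were above 0 throughout, from 0.46 for Cenpf, a kinetochore protein, to 1.58 for Hmmr, a spindle protein (limma adjusted p = 0.25 and 0.063). Hmmr stood at 1.19, 2.39 and 1.14 against 2.89, 12.1 and 7.29, with no overlap. Plk1, the kinase that matures the spindle poles, had 1.24 and Cdc20, the activator of the anaphase-promoting complex, 0.58 (limma adjusted p = 0.14 and 0.51). For Cdc20 the groups overlapped, at 0.962, 2.48 and 0.958 against 1.24, 7.09 and 1.49.

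S-phase genes did not move as one list in the same comparison, and the 4 that were called are no parts of the helicase or the clamp. E2f1, the factor that turns on S-phase genes, stood at 0.641, 1.31 and 0.745 in C3aR-positive WT and 7.73, 11.8 and 2.82 in C3aR-positive APP-KI (2.00 ± 0.55, limma adjusted p = 0.027). Rrm2, the S-phase subunit of ribonucleotide reductase, stood at 0.833, 0.633 and 0.106 against 5.15, 6.66 and 2.27 (1.85 ± 0.53, limma adjusted p = 0.033). Tyms, the enzyme that makes thymidylate, stood at 9.36, 6.82 and 5.47 against 18.1, 21.4 and 16.1 (1.27 ± 0.32, limma adjusted p = 0.018). Uhrf1, which keeps DNA methylation through replication, stood at 1.41, 3.21 and 3.69 against 7.89, 13.9 and 11.1 (1.69 ± 0.43, limma adjusted p = 0.021). The groups did not overlap for any of the 4.

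None of the 6 helicase subunits passed the test. Mcm5 came nearest, at 6.28, 9.83 and 12.3 against 13.2, 29.01 and 22.2 (1.08 ± 0.37, limma adjusted p = 0.061), and edgeR called it. Mcm2 stood at 12.98, 14.9 and 19.2 against 20.2, 37.1 and 20.7, with a log2 fold change of 0.65 (limma adjusted p = 0.14). Mcm3 stood at 82.7, 94.1 and 65.6 against 81.5, 108 and 94.4, and its groups overlapped. Mcm4 stood at 18.3, 22.9 and 29.8 against 19.4, 30.1 and 24.1, with a log2 fold change of 0.05, whereas Mcm7, at 27.3, 32.4 and 30.5 against 22.1, 33.6 and 25.2, had −0.17 (limma adjusted p = 0.89 and 0.59). Mcm6 stood at 10.1, 27.9 and 28.4 against 14.1, 36.8 and 26.7, with a wide range in both groups.

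The clamp and the remaining nucleotide enzymes did not pass either. Pcna stood at 41.96, 24.05 and 24.3 in C3aR-positive WT and 32.8, 32.7 and 37.00 in C3aR-positive APP-KI (0.22, limma adjusted p = 0.51). Rrm1, the partner of Rrm2 that is made throughout the cycle, stood at 32.5, 22.98 and 28.6 against 26.2, 37.1 and 43.8 (0.32, limma adjusted p = 0.34). Tk1, the thymidine salvage kinase, had a log2 fold change below 0, at 28.8, 28.9 and 37.7 against 21.1, 25.8 and 17.95, with each APP-KI library below each WT library (−0.54, limma adjusted p = 0.11).

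**Figure D3:**
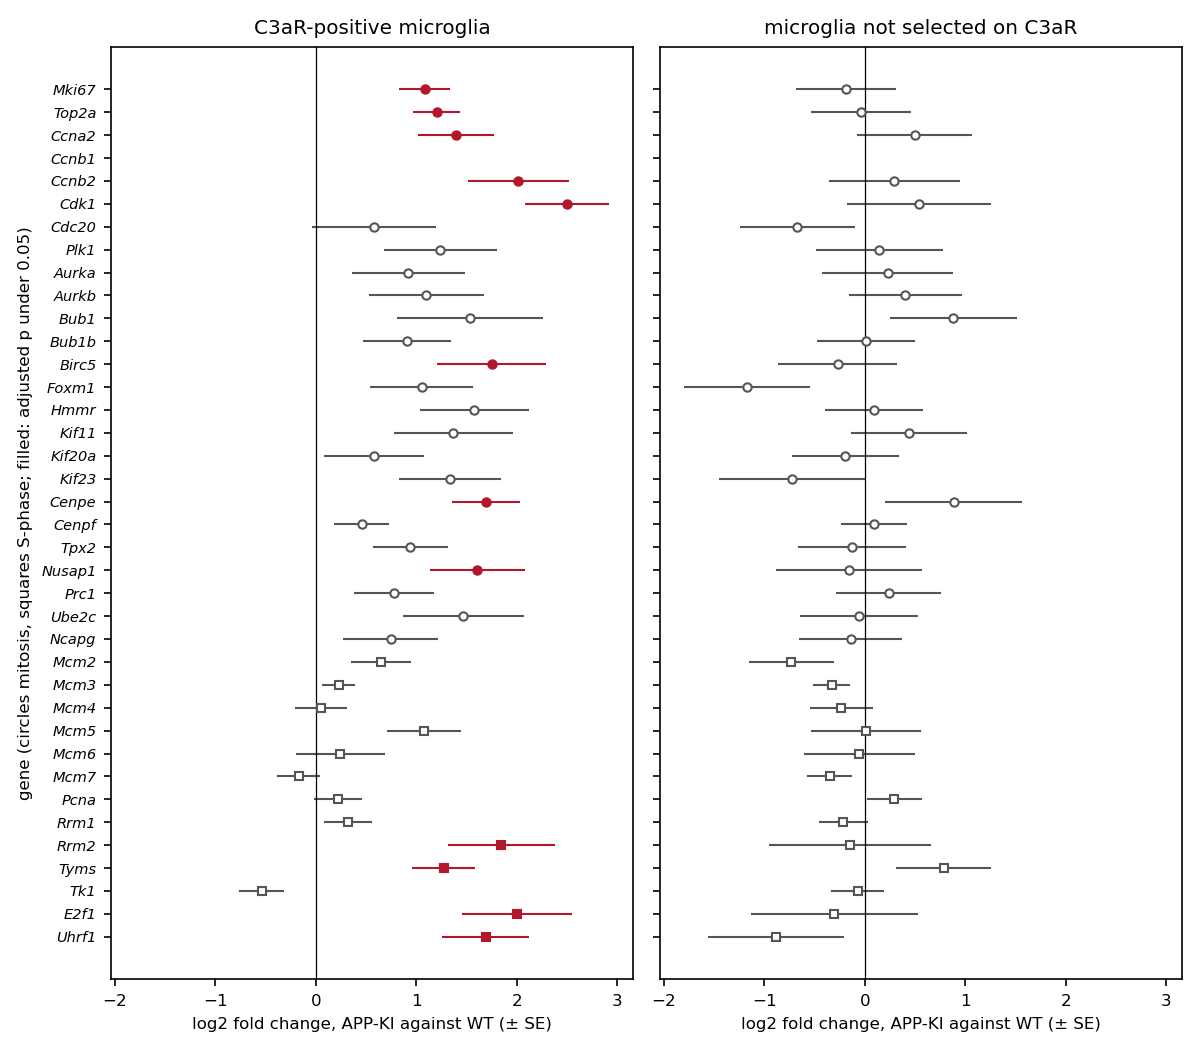
Log2 fold change of each member for APP-KI against WT (horizontal axes), in C3aR-positive microglia on the left and in microglia not selected on C3aR on the right, with bars of 1 standard error from limma (n = 3 and 3), circles for mitosis and squares for S-phase genes, filled where the adjusted p was under 0.05, and no point for Ccnb1, which was not tested. On the left the 24 mitosis points all lie above 0 and reach 2.50 for Cdk1, and the S-phase points run from −0.54 for Tk1 to 2.00 for E2f1, while on the right no point is filled and 11 of the 24 mitosis points lie below 0.

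The number of calls depended on single libraries. C3aR-positive APP-KI 2 was the highest of its group in all 25 mitosis genes and 11 of 13 S-phase genes, against 32.4% of all 12089 genes that averaged 1 or more. Without it 4 members were called, namely Cdk1, Cenpe, Mki67 and Top2a, and without C3aR-positive WT 1, 2 or 3 the counts were 6, 5 and 5. Without C3aR-positive APP-KI 1 or 3 they were 13 and 11. Cdk1, Cenpe and Top2a were called in each of these 6 fits. Mki67 was called in 5, Ccnb2 and Uhrf1 in 4, Tyms in 3 and Ccna2 in 2. Nusap1, E2f1 and Rrm2 were called in 1 each and Birc5 in 0, so those calls rested on nearly every library. On the recovered reads edgeR called 13 members higher, where 13.6% of its 13083 genes were called higher, and DESeq2 called 21. The shares over all genes by DESeq2 and in the 6 fits above are not given here, so those counts have no background beside them. With scaling by median ratios 13 members were called, Mcm5 beside the 12, and this scaling moved the median of all genes from −0.17 to −0.03, and it changed the calls over all genes from 1602 higher and 1196 lower to 1844 and 605.

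Other genes of the cycle, in lists that hold none of the 38, were read in the same comparison. These lists too were chosen with earlier results of these data known. Over all genes, limma called 13% higher and 9.72% lower here. Of 27 further mitosis genes tested, 8 rose and 1 fell in the C3aR-positive APP-KI cells, and the list had a median of 0.90 on the log2 scale. The higher ones included Ect2 and Racgap1, which place the cleavage furrow (2.35 and 1.33), the motor Kif4 (1.93), Cdca3 (2.09) and the actin binder Anln (1.44). The others were the kinetochore protein Nuf2 (1.55), Cdca8 (1.60) and Kif2c (1.74). The limma adjusted p of the 8 lay between 0.0062 and 0.047. The lower one was Ncaph, a condensin subunit (−0.84, limma adjusted p = 0.029). edgeR called 7 genes of this list higher and 0 lower, and Nuf2 and Ncaph were not among them. Of 18 genes of origin licensing and replication, Mcm10 (1.98) and the chromatin assembly genes Chaf1a and Chaf1b (1.92 and 1.62) were higher and Gins3 lower (−1.69), with limma adjusted p of 0.027, 0.012, 0.039 and 0.035. edgeR called 2 of these 4, Chaf1a and Mcm10. At 3 higher and 1 lower of 18 by limma, this list lay near the shares over all genes. Of 10 G1 cyclins and kinases limma called 0 higher and 1 lower, Ccnd3, a D cyclin (−1.05, limma adjusted p = 0.0090), while before adjustment 3 and 1 had a p under 0.05. edgeR called 2 of the 10 higher, Ccne1 and Cdk6. Of 16 genes that restrain the cycle, Cdkn1a, the p21 inhibitor of cyclin-dependent kinases, was higher (1.74, limma adjusted p = 0.0030), and no other passed.

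Markers of other cells were read beside these results. Of the 5 microglial markers 4 were lower in C3aR-positive APP-KI (limma), Tmem119 by the most at −1.45, and their sum was 10623 to 12719 against 18032 to 19301 in C3aR-positive WT. The 4 border macrophage markers were all lower, with a sum of 175 to 374 against 443 to 661. The 5 genes of the neutrophil list that were tested had log2 fold changes of −0.77 to 0.18 (limma adjusted p between 0.65 and 0.95), and sums of 25.1 to 232 against 21.0 to 536. C3aR-positive APP-KI 2, the library with the highest mitosis values, had the lowest neutrophil sum of its group, and each of the 3 libraries of the group had 2 of the 7 genes at 0 reads. All 3 T and NK cell markers in the files were at 0 in every C3aR-positive APP-KI library. The oligodendrocyte precursor list was higher in sum, at 102 to 283 against 9.49 to 12.5, through Cspg4, while Pdgfra had 1 or 2 reads per library in C3aR-positive APP-KI against 33 to 58. The endothelial sum was 165 to 321 against 33.7 to 71.7, through Flt1, while Pecam1 was lower. The oligodendrocyte sum was 131 to 147 against 59.9 to 81.7, and of its genes Mbp was higher (1.07, limma adjusted p = 0.0039). The astrocyte sum was 211 to 223 against 281 to 336, with Gfap higher (2.58) and Slc1a3 lower (−0.55), at a limma adjusted p of 0.0072 and 0.0071. Cd79b of the B cell list was lower (−1.33, limma adjusted p = 0.049), and no monocyte marker passed. The part of these cells in the mitosis values was not tested.

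Set beside WT microglia that were not selected on C3aR, it was the C3aR-positive WT libraries that were low in mitosis genes. In 14 of 24 mitosis genes and 6 of 13 S-phase genes every C3aR-positive WT library was below every WT library, and in 0 it was above, whereas 13.1% of the 12178 genes compared were lower in that way. Cdk1 stood at 0.833, 1.17 and 1.03 in the former and 4.18, 5.18 and 6.899 in the latter. The median difference in log2 scaled value was −0.90 for mitosis and −0.31 for S-phase genes. For C3aR-positive APP-KI against APP-KI the medians were 0.27 and 0.23, and with APP-KI 4 left out 0.07 and 0.04. The C3aR-positive libraries are a separate library series of lower depth from a separate cross, so the sort, the series and the cross cannot be told apart and no test was run.

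**Figure D4:**
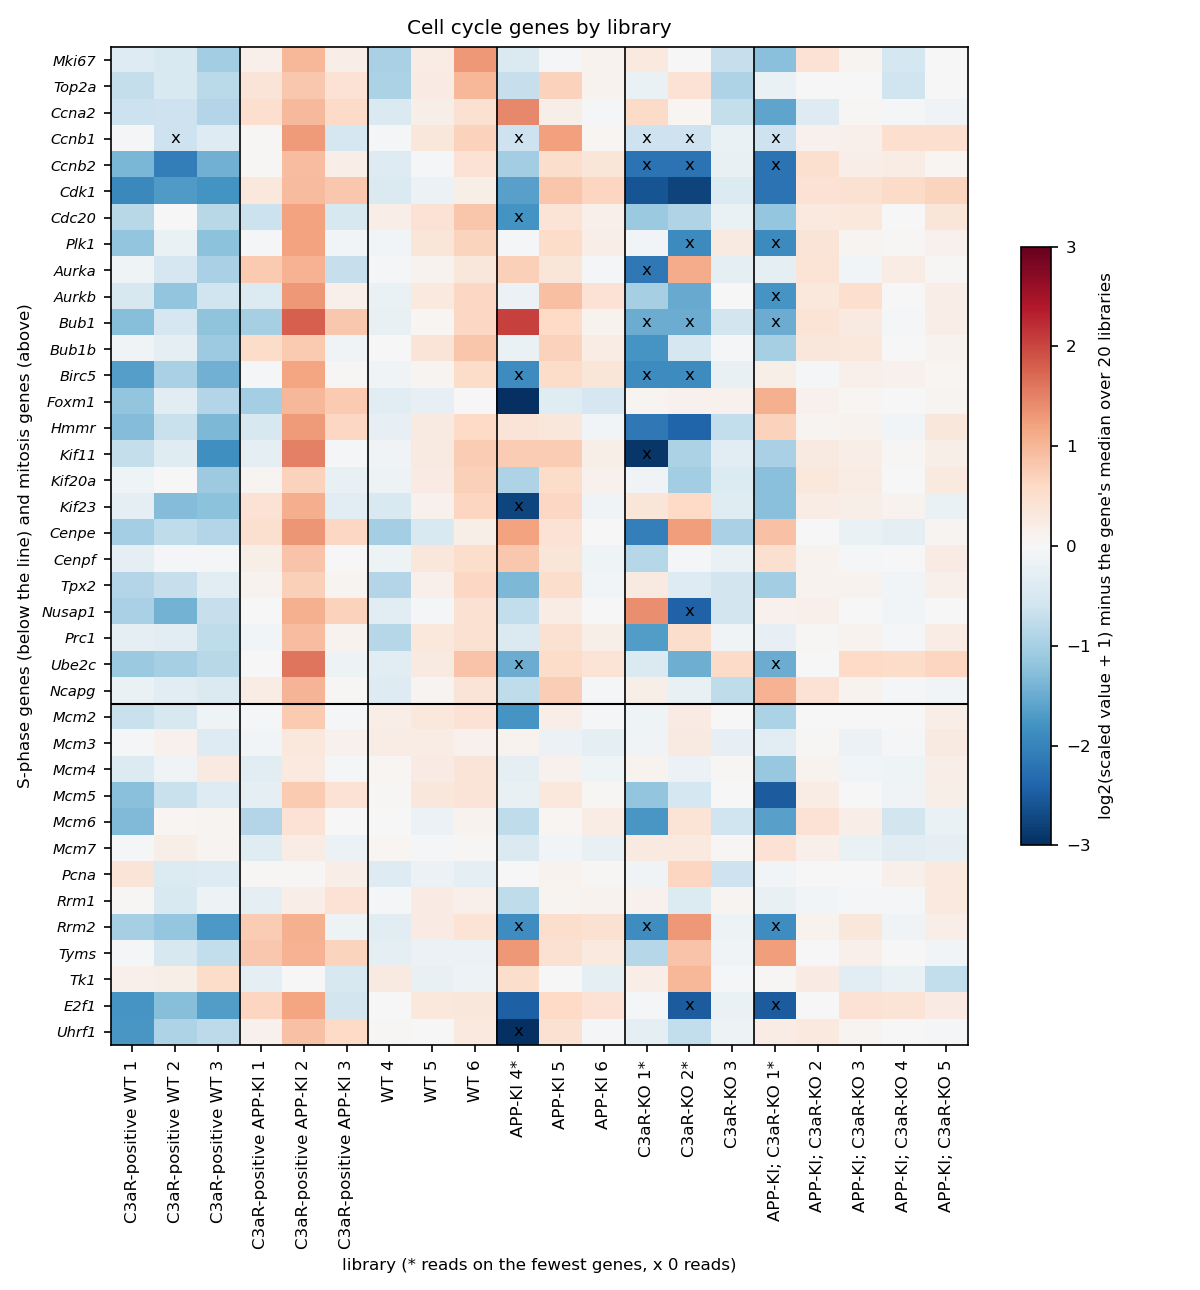
Level of each of the 38 members (rows, mitosis above S-phase) in each of the 20 libraries (columns, by group), as the difference of log2(scaled value + 1) from the median of that gene over the 20 libraries, with values beyond 3 drawn at the end colour and a cross where there were 0 reads. The C3aR-positive WT columns are low in most mitosis rows, and the 4 libraries with reads on few genes, marked with an asterisk, mix very low and very high members.

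In microglia not selected on C3aR, no member was called between APP-KI and WT when all 14 libraries were fitted with a term for the library series. By limma 0 of 37 members passed, and 0 had an unadjusted p under 0.05, while over all 12401 genes 2.22% were called higher and 1.93% lower. edgeR and DESeq2 called 0 as well. The median log2 fold change was 0.05 for mitosis genes, of which 13 were above 0 and 11 below, and −0.21 for S-phase genes. Within the series that holds WT 4 the mitosis median was 0.38 (2 APP-KI libraries and 1 WT) and within the other −0.33 (1 and 2), so it differed in sign between the series, and the S-phase medians were −0.28 and −0.10. Members of low level were scattered within both groups. Ccnb1 stood at 0.516, 0.935 and 1.48 in WT and 0, 2.61 and 0.609 in APP-KI, and Birc5 at 2.39, 2.86 and 4.42 in WT and 0, 4.39 and 3.73 in APP-KI.

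APP-KI 4 is one of the libraries with few genes, and leaving out all 4 such libraries, an alternative chosen after the data were seen, gave 4 calls. This compared APP-KI 5 and 6 with 3 WT libraries in a fit of 10 libraries, in which 13.2% of 12559 genes were called higher and 14.7% lower, so that 4 of 38 was no more than the share over all genes. The sum of 3 T and NK cell markers was 41.6 in APP-KI 5, 0.258 in APP-KI 6 and 0.184 to 0.502 in WT. That of 3 neuron markers was 10.8, 1.79 and 1.17 to 3.23. The T and NK cell sum was also 39.9 in C3aR-KO 2 and 20.5 in APP-KI; C3aR-KO 2. The part of these cells in the calls was not tested. Cdk1 stood at 4.18, 5.18 and 6.899 in WT and 1.26, 11.4 and 9.905 in APP-KI 4, 5 and 6. Its log2 fold change was 0.54 with all libraries (limma adjusted p = 0.93) and 0.91 ± 0.17 without the 4 (limma adjusted p = 0.0043). Tyms stood at 7.94, 8.58 and 8.56 in WT and 25.7, 13.99 and 12.3 in APP-KI, where every APP-KI library was above every WT library, and it had 0.78 and then 0.59 ± 0.11 (limma adjusted p = 0.62 and 0.0041).

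The other 2 were S-phase genes that moved in opposite directions. Pcna stood at 24.5, 28.2 and 26.5 in WT and 31.7, 34.4 and 33.1 in APP-KI, with log2 fold changes of 0.29 and, without the 4 libraries, 0.36 ± 0.10 (limma adjusted p = 0.85 and 0.024). Mcm3 stood at 102, 101 and 94.8 against 93.9, 76.9 and 71.2, with −0.33 and −0.43 ± 0.12 (limma adjusted p = 0.57 and 0.024). edgeR without the 4 libraries called Cdk1, Tyms and Mcm3 and not Pcna (adjusted p = 0.093). Without APP-KI 5 as well, which had reads on nearly all genes, Cdk1 and Tyms were called by limma with adjusted p of 0.0491 and 0.0459, and this fit had a single APP-KI library, assumed to vary like the other groups.

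No other member passed the test between WT and APP-KI in either fit. Mki67 stood at 39.8, 53.1 and 58.1 and Top2a at 13.6, 37.2 and 24.6 in APP-KI, all inside the WT ranges given above. Ccna2 stood at 3.896, 6.39 and 7.98 in WT and 16.8, 6.45 and 5.37 in APP-KI, with APP-KI 4 far above both others. Ccnb2 stood at 2.55, 3.54 and 5.28 against 1.24, 5.68 and 4.96, Nusap1 at 3.22, 4.12 and 6.43 against 2.21, 5.22 and 4.41, and Hmmr at 3.57, 5.52 and 7.23 against 6.07, 5.85 and 4.09. These 3 overlapped between the genotypes. Cenpe stood at 4.99, 7.84 and 12.8 against 27.2, 15.3 and 11.4, where APP-KI 4 was again the highest. Of 27 further mitosis genes tested with all libraries, limma called 1, Ncaph, which was lower in APP-KI (−1.17, limma adjusted p = 0.031). Without the 4 libraries, limma called 2 of 16 brakes of the cycle higher and 2 lower. Over all genes that fit called 13.2% higher and 14.7% lower. The higher brakes were Cdkn2a and Cdkn2b, which hold back cyclin D kinases (1.29 and 0.85), and the lower ones Cdkn1b and E2f4 (−0.33 and −0.35).

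None of the 6 helicase subunits passed the test here with all libraries, and Mcm3 alone did without the 4. Mcm2 stood at 24.3, 26.6 and 28.8 in WT and 5.53, 24.3 and 20.2 in APP-KI, Mcm4 at 25.6, 29.3 and 32.2 against 20.4, 26.9 and 22.3, and Mcm7 at 29.7, 28.02 and 29.3 against 21.00, 27.04 and 24.4. For Mcm7 each APP-KI library was below each WT library, with a log2 fold change of −0.35 (limma adjusted p = 0.66). Mcm5 stood at 16.8, 20.8 and 21.6 against 13.9, 20.5 and 16.6, and Mcm6 at 27.2, 23.7 and 29.1 against 15.5, 27.9 and 31.4, both with overlap. Of the nucleotide enzymes, Rrm1 stood at 30.8, 38.2 and 35.7 against 18.5, 34.1 and 34.5, Rrm2 at 1.903, 3.35 and 3.86 against 0, 4.28 and 3.98, and Tk1 at 31.1, 21.9 and 22.9 against 37.2, 25.4 and 21.03. Rrm2 was missing from APP-KI 4 and above each WT library in the other 2. E2f1 stood at 4.63, 6.03 and 6.11 against 0.02102, 7.46 and 6.64, and Uhrf1 at 7.29, 6.996 and 8.88 against 0, 10.1 and 6.82, and both had their lowest value in APP-KI 4.

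**Figure D5:**
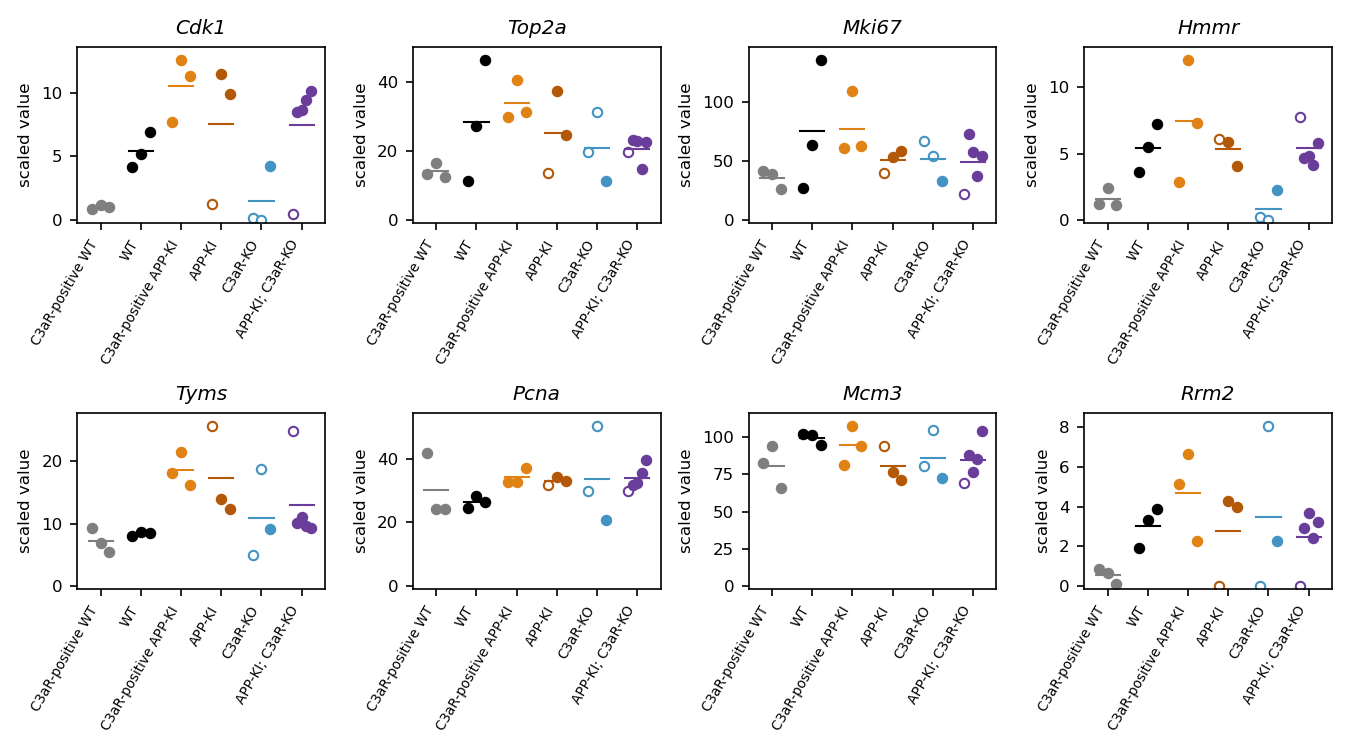
Scaled values (vertical axes, linear, each panel with its own range) of 8 single members in every library by group, with open symbols for the 4 libraries with reads on few genes and a line at each group mean. Cdk1 was at 0.833 to 1.17 in C3aR-positive WT and 0.0157 to 0.496 in 3 of the 4 open symbols, and at 4.18 to 12.6 in the filled symbols of the other groups.

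Loss of C3ar1 in APP-KI mice was not followed by a called change in any member. With APP-KI; C3aR-KO set against APP-KI, limma called 0 of 37, with 1 at an unadjusted p under 0.05, and edgeR and DESeq2 0, while 0.00806% of genes, which is 1 gene of 12401, passed in either direction. At an unadjusted p under 0.05, 38 of all 12401 genes were higher and 109 lower. The medians were −0.19 for mitosis genes, of which 7 were above 0 and 17 below, and −0.12 for S-phase genes. Without the 4 libraries with few genes, 2 mitosis genes were above 0 and 23 below (median −0.21), with 0 calls. By edgeR on the same libraries 6 were above 0 and 19 below. The median over all genes was −0.03 with all libraries and −0.01 without the 4 by limma. Cdk1 stood at 0.496, 8.46, 8.61, 9.41 and 10.15 in APP-KI; C3aR-KO 1 to 5, where the low first value is the library with few genes and the other 4 were above all WT values. Mki67 stood at 22.1, 72.9, 57.6, 37.4 and 54.05, Top2a at 19.7, 22.96, 22.8, 14.7 and 22.5 and Tyms at 24.8, 10.03, 11.01, 9.698 and 9.300. For Mki67 and Tyms the library with few genes held the lowest and the highest of the 5 values. The member with the unadjusted p was Foxm1, the factor that drives mitosis genes, at 0.652, 12.4 and 11.2 in APP-KI and 35.3, 18.01, 17.1, 16.5 and 17.1 in APP-KI; C3aR-KO (1.66, limma adjusted p = 1). Its extreme values were those of the libraries with few genes, and without them the log2 fold change was 0.51 (limma adjusted p = 0.83).

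Loss of C3ar1 in mice without amyloid gave 0 calls by limma, edgeR and DESeq2 as well, again where 0.00806% of all genes passed. At an unadjusted p under 0.05 there were 3 mitosis genes, all lower in C3aR-KO than in WT. Of all 12401 genes, 123 were higher and 221 lower at that level. The 3 were Hmmr (−1.89), Kif11, the motor that pushes spindle poles apart (−1.53), and Birc5 (−1.28), each with a limma adjusted p of 0.99. Hmmr stood at 3.57, 5.52 and 7.23 in WT and 0.2204, 0.0157 and 2.23 in C3aR-KO, and every C3aR-KO library was below every WT library, but the 2 lowest are libraries with few genes. Over the list, 22 of 24 mitosis genes were below 0 with a median of −0.59, and 9 of 13 S-phase genes with −0.15. The median over all genes tested was −0.03. Without the 4 libraries a single C3aR-KO library was left, in which 23 of 25 mitosis genes were below WT with a median of −0.52. The median over all genes in that fit was 0.04. In the mitosis genes WT 6 was the highest WT library here too.

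Among knockout mice, amyloid went with 1 called member. Hmmr stood at 7.74, 4.69, 4.79, 4.14 and 5.82 in APP-KI; C3aR-KO and 0.2204, 0.0157 and 2.23 in C3aR-KO, with a log2 fold change of 1.92 ± 0.44 (limma adjusted p = 0.014), in a comparison that called 3.96% of all genes higher. All 5 values of the former were above all 3 of the latter. The call was lost by edgeR (adjusted p = 0.18) and without the 4 libraries with few genes (0.89, limma adjusted p = 0.059). Without those 4, 13.2% of genes were called higher and the members called were Cdk1 (0.99 ± 0.21, limma adjusted p = 0.0073) and Pcna (0.75 ± 0.12, limma adjusted p = 0.0021), against a lone C3aR-KO library assumed to vary like the others. Cdk1 stood at 0.162, 0.0157 and 4.24 in C3aR-KO, and Pcna at 29.9, 50.4 and 20.6 in C3aR-KO and 30.00, 31.7, 32.4, 35.5 and 39.8 in APP-KI; C3aR-KO, where leaving out C3aR-KO 1 and 2 removed the 2 highest C3aR-KO values. Over the lists the medians with all libraries were 0.51 for mitosis and −0.03 for S-phase genes, and −0.03 over all genes. Of 16 brakes, limma called 1 higher with all libraries, Cdkn2b (1.88, limma adjusted p = 0.032), and edgeR called 0.

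Other mitosis genes in the knockout groups showed how far the libraries with few genes lay from the rest. Ccnb1 stood at 0, 0 and 0.343 in C3aR-KO and 0, 0.673, 0.722, 1.18 and 1.18 in APP-KI; C3aR-KO, and Ccnb2 at 0, 0 and 2.99 against 0, 5.46, 4.35, 4.41 and 3.87. Birc5 stood at 0, 0 and 2.15 against 3.16, 2.595, 3.100, 3.04 and 2.800, and Nusap1 at 13.2, 0 and 2.68 against 4.87, 4.94, 4.37, 4.07 and 4.37. Each zero among these 4 genes belongs to C3aR-KO 1, C3aR-KO 2 or APP-KI; C3aR-KO 1, while C3aR-KO 3 and APP-KI; C3aR-KO 2 to 5 all had reads. Mki67, Top2a, Ccna2 and Cenpe had reads in all of these libraries. Mki67 stood at 67.01, 54.1 and 32.9 and Top2a at 19.5, 31.2 and 11.4 in C3aR-KO, with the libraries with few genes above C3aR-KO 3. Ccna2 stood at 8.77, 5.83 and 2.98 in C3aR-KO and 1.196, 4.01, 5.69, 5.46 and 5.07 in APP-KI; C3aR-KO, and Cenpe at 1.93, 28.1 and 5.204 against 21.4, 10.97, 9.67, 8.94 and 11.8.

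The S-phase genes in the knockout groups were likewise scattered in the libraries with few genes. Mcm3 stood at 80.5, 105 and 72.6 in C3aR-KO and 69.4, 88.1, 76.5, 85.15 and 104 in APP-KI; C3aR-KO, and Mcm7 at 34.8, 35.1 and 29.4 against 38.98, 32.04, 25.03, 22.5 and 23.6. Mcm5 stood at 6.67, 11.1 and 16.6 against 2.08, 19.1, 16.04, 14.97 and 18.6, so that APP-KI; C3aR-KO 1 was far below the other 4. Mcm2 stood at 19.2, 25.01 and 21.3 against 10.5, 21.3, 20.9, 21.4 and 24.2, Mcm4 at 26.6, 21.5 and 25.1 against 10.6, 26.4, 23.3, 22.2 and 28.3, and Mcm6 at 7.36, 36.4 and 17.5 against 7.96, 37.01, 30.9, 18.1 and 23.5. For these 3 the same library was the lowest of its group. Rrm2 stood at 0, 8.07 and 2.27 in C3aR-KO and 0, 2.93, 3.66, 2.403 and 3.200 in APP-KI; C3aR-KO, and E2f1 at 4.39, 0 and 3.93 against 0, 4.601, 6.62, 6.47 and 5.700, each with zeros and with values like those of WT in the same group. Uhrf1 stood at 5.69, 3.87 and 6.25 against 8.39, 8.87, 7.57, 7.14 and 6.77, Rrm1 at 34.98, 23.8 and 33.7 against 27.1, 29.98, 31.4, 30.8 and 39.2, and Tk1 at 29.6, 51.9 and 24.99 against 26.2, 30.5, 20.3, 22.04 and 14.8. Tyms stood at 5.01, 18.8 and 9.145 in C3aR-KO, where C3aR-KO 1 and 2 were the lowest and the highest.

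Whether 2 changes differ was tested directly. The loss of C3ar1 did not have a detectably different effect in APP-KI than in WT for any member: limma called 0 of 37, with 1 at an unadjusted p under 0.05 (Hmmr, 1.83), edgeR and DESeq2 called 0, and 0% of all genes passed. Before adjustment, 111 of all 12401 genes were higher and 92 lower in this test. The APP-KI effect in the C3aR-positive cells was set against that in cells not selected on C3aR over 12 libraries, and again 0 members and 0% of 12581 genes passed by limma, and 0 members by edgeR and DESeq2. At an unadjusted p under 0.05, 7 mitosis and 6 S-phase genes had a log2 fold change between APP-KI and WT that was higher in the C3aR-positive cells, as had 836 of all 12581 genes. For Cdk1 this difference was 2.41 on the log2 scale (limma adjusted p = 0.39). The difference was above 0 for all 24 mitosis genes tested, with a median of 1.24, and for 11 of 13 S-phase genes, with a median of 0.54. Over all 12581 genes the median difference was −0.02. The higher mitosis genes in C3aR-positive APP-KI were thus not shown to differ from the change in cells not selected on C3aR, and the 2 effects come from separate library series.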

How the data were processed

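Each library was deposited as 1 table of gene symbols and values that the authors named FPKM. Per the submitters' processing notes, reads were trimmed with cutadapt, aligned with TopHat2 to mm10 and counted with featureCounts, and DESeq2 was used. The kit adds molecular identifiers, and whether they were used to remove duplicates, and whether counting used strand, is not given in the sources used here. The deposited values were a signal, namely reads divided by the upper quartile of the gene counts of the library, with no division by length: whole reads were recovered for 100% of values. This differs from the unit the name implies. Libraries were grouped by the labels. A marker gene of the microglial list is not reported here and was left out of its sums.

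Deposited values times 35.1 are the scaled values. The 6 C3aR-positive libraries were fitted alone, and the other 14 together with a term for the library series, by limma (3.58.1, R 4.3.3) on log2(scaled value + 1) with its trend option. The pseudocount of 1 understates changes of low genes. Genes that averaged 1 or more in scaled value over a fit were tested, with Benjamini-Hochberg adjustment over all of them and a threshold of 0.05. Alternatives used edgeR (4.0.16, quasi-likelihood) and DESeq2 (1.42.0) on the recovered reads, other filters, pseudocounts and scalings, a replicate block and single libraries left out. Members called by limma in the main fits and the leading members of each list were named. Of the other genes of the cycle and the cell type markers, not every called gene was named. The fit was tested on simulated data. Members and lists were chosen with earlier results of these data known. Coordinates and exon lengths are from GENCODE M21 and promoters from RefSeq, both on GRCm38. No 2 replicates agreed within sampling noise (chi-square per degree of freedom of 20.8 or more). The same-numbered libraries did not deviate together (Pearson's r over genes of −0.29 to 0.25), so replicate numbers were not used as pairs.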

Additional observations from a re-analysis of the deposited data

Results flagged for a closer look

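Of the 38 members tested in the group of 5 APP-KI; C3aR-KO libraries, 9 had 1 library whose gap to its nearest neighbour was more than 0.71 of the whole range of the group, and it was APP-KI; C3aR-KO 1 each time. This library had reads on the fewest genes of all 20. It was the lowest for 6 members, with scaled values of 0.496 for Cdk1 (the others 8.46 to 10.15), 0 for Plk1, 2.84 for Kif11, 3.54 for Tpx2, 10.5 for Mcm2 and 2.08 for Mcm5. It was the highest for 3, with 35.3 for Foxm1 (the others 16.5 to 18.0), 21.4 for Cenpe and 24.8 for Tyms. By chance about 1 in 20 groups is marked in this way, and the genes of a library are not independent.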

How the results depend on the processing

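For C3aR-positive APP-KI against WT, the 12 calls became 5 with no filter on low values, 7 with genes averaging 5 or more and 21 with DESeq2, and the mitosis median rose to 1.79 by edgeR and 1.82 by DESeq2. With genes averaging 5 or more, Birc5, Ccnb2, Nusap1, E2f1 and Rrm2 were not tested. The shares over all genes are not given here for the counts of 5, 7 and 21. Leaving out single libraries gave 4 to 13 calls, mitosis medians of 0.81 to 1.46 and S-phase medians of 0.23 to 0.61. For APP-KI against WT, 0 calls became 4 without the libraries with few genes, 3 by edgeR on the same libraries and 2 without APP-KI 5 too, all chosen after seeing the data, while leaving out single libraries gave 0 to 0, with mitosis medians of −0.22 to 0.34. For C3aR-KO against WT the mitosis median ran from −0.87 to −0.47 in this way, and with APP-KI; C3aR-KO set against C3aR-KO they gave 1 to 2 calls, the 2 (Cdk1 and Hmmr) without APP-KI; C3aR-KO 1. The 1 call there was Hmmr, and it became 0 by edgeR, with the 2 groups alone and with the replicate block. It was also 0 with genes averaging 5 or more, where Hmmr was not tested. For C3aR-KO against WT the mitosis median was −1.03 with a pseudocount of 0.1. With the replicate block, 10 members were called in the C3aR-positive cells and 1 (Foxm1, replicates 4 and 5) with APP-KI; C3aR-KO set against APP-KI, and no paired fit could be made between C3aR-KO and WT or for the effect of C3ar1 loss compared between genotypes, since they share no numbers. The cause of these shifts was not tested. No gene call that was followed through the settings turned into a call in the other direction. Of the counts of called members and the list medians, 368 stayed close to their main value and 21 moved. Calls of single genes are not among these values. Counts of 0 that stayed at 0, such as those for C3aR-KO against WT, were scored as close. The tally therefore does not show how stable the 12 calls were.

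Depth limits the low members. In C3aR-positive libraries 1 read is a scaled value of 0.0321 to 0.0784, and Ccnb1 rests on 0 to 63 reads there and Birc5 on 5 to 171.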
